A study of Mus musculus and Homo sapiens with 8 samples.

Results

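The mitochondrial ribosomal protein genes are the nuclear genes named Mrpl or Mrps followed by a digit. In a deposited gene expression table of mouse small intestinal crypts, 77 of 13359 distinct genes were protein-coding genes with such a name, and all 77 are described here. The rule reads names and uses no measured value. The pseudogene Mrpl23-ps1 was left out, and its 4 values lay between 1.92 and 3.58 FPKM (fragments scaled by gene length and by the total reads of the library). All 77 passed the filter on low values, which asked for at least 1 FPKM in at least 2 of the 4 libraries and left 12948 genes for testing.

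RNA-seq had been carried out on crypt cells of 2-month-old C57BL/6 mice. The control group held 2 libraries of genotype APCmin+, that is Apc Min, a truncating mutation of the Wnt pathway regulator Apc that leads to intestinal adenomas. The other group held 2 libraries of genotype APCmin+; Zmynd8IEC-/-, in which ZMYND8, a chromatin protein that reads histone marks, is labelled as deleted in the intestinal epithelium. Both groups therefore carry Apc Min, and both are labelled untreated. Each library was made from the pooled RNA of 3 mice. The sources used here do not name the Cre driver or the deleted exons. Whether the pools of a group came from separate litters or days is not stated, and p-values then reflect only how these pools differ, which may be technical. The 4 libraries held between 44718091 and 48778712 reads. Zmynd8 RNA measured 6.94 and 4.73 FPKM in the controls and 7.30 and 7.65 FPKM in the knockout-labelled libraries, and so was not lower in the latter (log2 fold change 0.33, SE 0.18, limma adjusted p = 0.293). A value per gene cannot show a deletion of a few exons, so these libraries are named by their label throughout. The epithelial marker Epcam measured between 976 and 1315 FPKM in the 4 libraries.

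Mitochondria carry their own ribosome, which translates the few proteins encoded by mitochondrial DNA. Those proteins are core subunits of the respiratory chain and of the ATP synthase, and all proteins of the mitoribosome itself are encoded in the nucleus, made in the cytosol and imported. Some of these proteins descend from bacterial ribosomal proteins, and the rest were added in the mitochondrial lineage. In the intestinal crypt, stem and dividing cells sit beside Paneth cells, and energy metabolism shifts as cells leave the crypt to become absorptive enterocytes.

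As scaled by the authors, the summed level of the 77 members was lower in both knockout-labelled libraries than in either control. The sum was 1551 and 1542 FPKM in the controls and 1302 and 1361 FPKM in the knockout-labelled libraries. As a share of all reads of a library, the members took 0.193% and 0.191% in the controls against 0.162% and 0.168%. The groups did not overlap in either measure. After median-ratio scaling, which sets the typical gene to no change, the sums overlapped, at 1410 and 1504 FPKM for the controls against 1354 and 1481 FPKM. The median member measured 18.5 and 17.4 FPKM in the controls and 14.6 and 14.7 FPKM in the knockout-labelled libraries. The mean of a member in the knockout-labelled libraries differed from its control mean by a median of -17.3%, over a range of -37.8% to 12.8%. In bulk samples, fewer cells of a type and less RNA per cell cannot be told apart, and this holds for every value below.

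**Figure D1:**
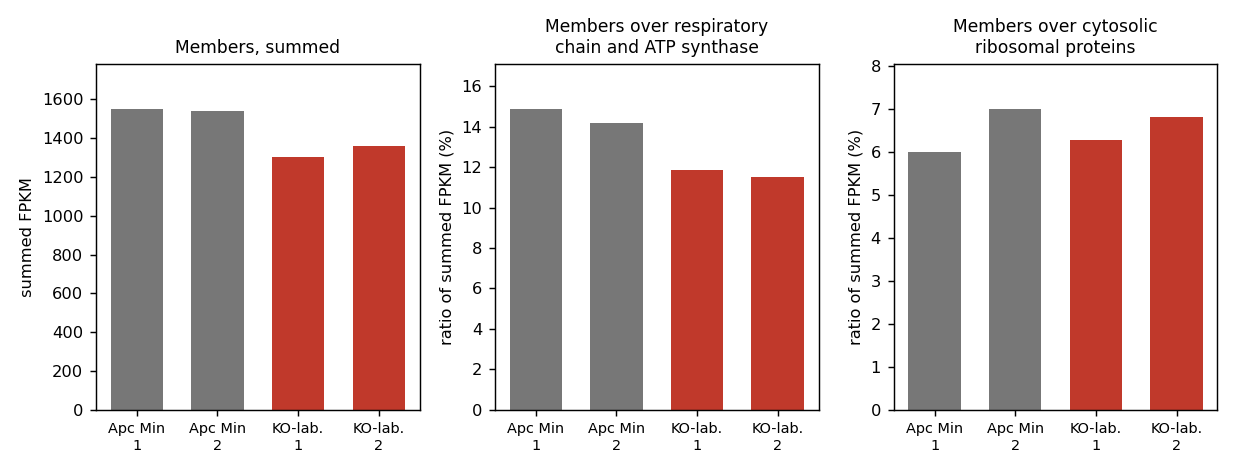
Left: summed FPKM of the 77 mitochondrial ribosomal protein genes in each library, controls in grey and knockout-labelled libraries in red. Middle and right: the same sum as a percentage of the summed FPKM of 79 respiratory chain and ATP synthase genes and of 78 cytosolic ribosomal protein genes. As scaled by the authors, the groups separate in the left panel, and they separate in the middle panel (14.9% and 14.2% against 11.9% and 11.5%) and overlap in the right panel.

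No member passed the test by itself. Of 77 members, 0 were called at an adjusted p under 0.05 in limma, with the adjustment made over all 12948 genes tested, where 94 genes were called (0.726%). The voom test on recovered reads also called 0 members. At an unadjusted p under 0.05, limma placed 28 members lower and 0 higher, where 19.1% of all genes were lower and 7.49% higher at that threshold. The voom test placed 18 members lower and 0 higher there, where 19.4% of all genes were lower. The 28 became 3 without replicate 1 of the knockout-labelled libraries (8.52% of all genes), 10 without their replicate 2 (5.23%), 17 without control replicate 1 (14.7%) and 20 without control replicate 2 (26% of all genes). The members' count was thus below the share of all genes in the first of these settings and level with it in the last. The smallest adjusted p of a member was 0.0940, for Mrps18b.

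The direction was shared by most members. The log2 fold change (on the log2(FPKM + 1) scale, knockout-labelled libraries against controls) was negative for 67 members and positive for 10, while it was negative for 71.7% of all genes tested. Its median was -0.25, against -0.15 over all genes. In 56 of 77 members both knockout-labelled libraries lay below both controls, where this held for 48.5% of all genes, and only Mrpl45 lay above in all 4 pairings of libraries, where this held for 14.9%. The remaining 20 members overlapped between groups.

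These counts moved with the scaling. Median-ratio scaling shifted the median of all genes by 0.15 on the log2 scale. After it, the members' median was -0.09, 50 were negative (50.9% of all genes) and 27 positive, 22 lay lower in all 4 pairings (28% of all genes) and 13 higher (28.2% of all genes). At an unadjusted p under 0.05, 2 members were then lower and 1 higher, where 8.14% of all genes were lower, so the members' count was below that share. After quantile normalization the median was -0.13, against -0.02 over all genes. Of the members 55 were then negative (6971 of all 12948 genes) and 35 lay lower in all 4 pairings (31% of all genes). A total of 50 members kept a negative and 10 a positive value under all 3 scalings, and 17 turned from negative to positive under median-ratio scaling. Signs kept or turned were not counted over all genes, so these numbers have no background share.

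The spread among the members was narrower than among genes at large. Their log2 fold changes had an interquartile range of 0.19, against 0.35 over all genes. Of the members 98.7% lay within 0.5 of zero, against 84.4% of all genes. All genes tested had a lower median level, 7.29 against 16.1 FPKM. The members' quartiles were -0.31 and -0.12. Those of the cytosolic ribosomal protein genes were -0.27 and -0.17, and those of the respiratory chain and ATP synthase genes 0.001 and 0.15. Both of these sets were thus narrower than the members. The 95% intervals of single members bound what these libraries can show. The intervals of 28 members lay wholly below zero, those of 49 included zero, and the outermost bounds were -0.92 and 0.53. Thus no interval reached -1 or 1 on the log2(FPKM + 1) scale, which for low genes is not the same as a 2-fold change in FPKM. The interval of 75 members also included the median of all genes. Within a group, the 2 libraries differed by a median of 0.105 on the log2 scale, in the controls and in the knockout-labelled libraries alike. The difference between groups exceeded both gaps in 49 members. This was not counted over all genes, so the number has no background share and says nothing particular about the members. Between 284 and 3878 reads stood behind each member in each library. The gap between the 2 controls exceeded what counting error allows at 95% in 40 members, and that between the knockout-labelled libraries did so in 31.

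**Figure D2:**
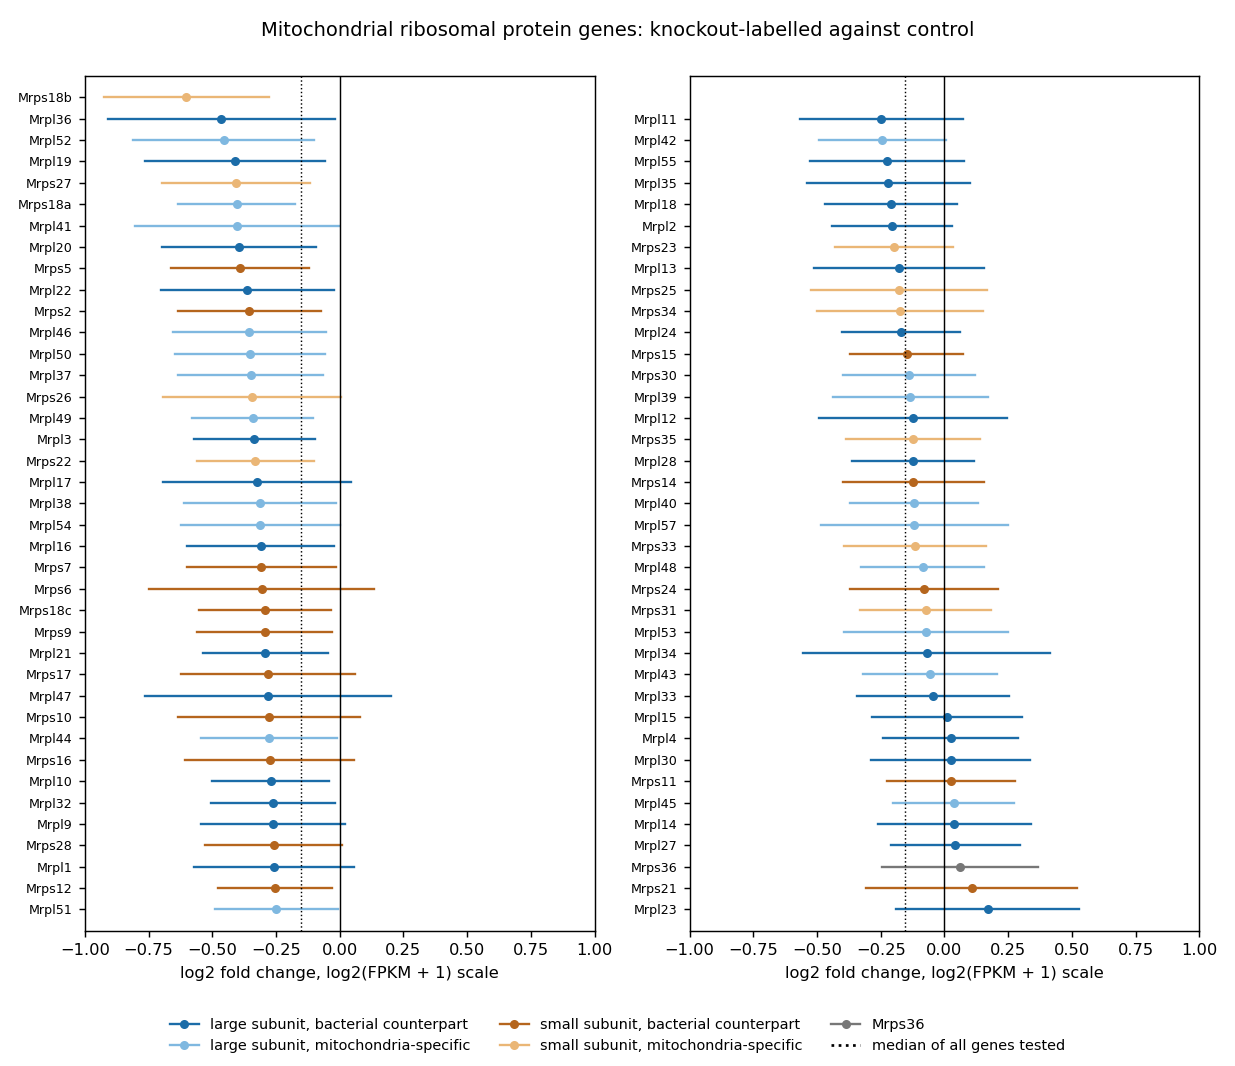
Log2 fold change of each of the 77 members (points) with its 95% interval from limma (bars), on the log2(FPKM + 1) scale, ordered from the most negative to the most positive and coloured by subunit and by whether a bacterial counterpart exists. Points run from -0.60 (Mrps18b) to 0.17 (Mrpl23), the dotted line marks the median of all genes tested (-0.15), and 67 of 77 points lie left of zero.

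Both subunits shared the direction. By the uniform naming of mitoribosomal proteins, 50 members belong to the large subunit, which joins amino acids, and 26 to the small subunit, which reads the mRNA. Mrps36 was set apart, since its product is now known as a part of the α-ketoglutarate dehydrogenase complex. The median log2 fold change was -0.25 in the large subunit, with 43 of 50 negative (32 after median-ratio scaling), and -0.27 in the small subunit, with 24 of 26 negative (18 after median-ratio scaling). The summed level of the small subunit was 47.8% and 45.5% of that of the large subunit in the controls against 49.0% and 45.2% in the knockout-labelled libraries, so the groups overlapped in this ratio. Members with a bacterial counterpart had a median of -0.26 over 46 genes, 38 of them negative. Members that the uniform naming marks as specific to mitochondria had a median of -0.25 over 30 genes, 29 of them negative. By that naming Mrps18a and Mrps18b are counted among the latter, although they descend from a bacterial protein. Lower in all 4 pairings were 32 of 46 and 24 of 30, where the background was 48.5%. After median-ratio scaling these counts were 13 and 9 (28.3% and 30%), near the 28% of all genes.

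The 3 Mrps18 paralogs descend from a single bacterial protein, S18, and occupy 3 different places: MRPS18C is the direct counterpart in the small subunit, MRPS18B is another small subunit protein, and MRPS18A sits in the large subunit despite its name. Their promoters are shown because the paralogs had the same direction and different levels. Each is the 150 bases before the RefSeq start in build GRCm38.p6, 5′ to 3′ on the strand of the gene, with matches to the searched motifs in capitals. Mrps18a lies at chr17:46110854-46111003 on the plus strand, Mrps18b at chr17:35916441-35916590 on the minus strand and Mrps18c at chr5:100798609-100798758 on the plus strand. In Mrps18a the capitals mark an ETS family motif 26 bases before the start, and in Mrps18b they mark GC boxes read on the other strand, 63 and 47 bases before the start. Mrps18c held none of the motifs in this stretch. In the longer stretch searched below, which also runs past the start, all 3 paralogs held the ETS motif. Mrps18b and Mrps18c also held a GC box there. Other motifs differed, with a CCAAT box and a YY1 motif in Mrps18a, an NRF1 motif in Mrps18b and an E-box in Mrps18c. A motif missing from the printed bases is thus not always missing from the longer stretch.
Mrps18a: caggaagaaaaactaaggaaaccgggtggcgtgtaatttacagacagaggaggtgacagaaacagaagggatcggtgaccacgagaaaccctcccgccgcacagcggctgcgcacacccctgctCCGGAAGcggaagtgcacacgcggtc
Mrps18b: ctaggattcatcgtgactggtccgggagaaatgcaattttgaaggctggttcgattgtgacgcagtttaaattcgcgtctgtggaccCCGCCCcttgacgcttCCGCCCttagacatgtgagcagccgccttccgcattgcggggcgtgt
Mrps18c: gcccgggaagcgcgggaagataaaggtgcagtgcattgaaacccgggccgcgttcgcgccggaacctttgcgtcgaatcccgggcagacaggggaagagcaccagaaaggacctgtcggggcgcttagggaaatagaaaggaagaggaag

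Mrps18b had the most negative log2 fold change of all members and the lowest level of the 3 paralogs. It measured 8.60 and 10.1 FPKM in the controls and 6.14 and 5.46 FPKM in the knockout-labelled libraries, with 417, 532, 310 and 284 reads. The groups did not overlap, and the mean was 0.622 times that of the controls (log2 fold change -0.60, SE 0.13, limma adjusted p = 0.0940). It kept its sign after median-ratio scaling, at -0.45. Mrps18a measured 22.3 and 22.2 FPKM in the controls against 17.0 and 16.1 FPKM (-0.41, SE 0.09, limma adjusted p = 0.0983). Mrps18c, the most abundant of the 3, measured 41.8 and 37.7 FPKM against 32.9 and 31.5 FPKM (-0.30, SE 0.10, limma adjusted p = 0.161). In all 3 paralogs the groups stood apart, also after median-ratio scaling, and none passed the threshold. Within a library, Mrps18b was 0.386 and 0.453 times the level of Mrps18a in the controls against 0.361 and 0.338 times in the knockout-labelled libraries, a ratio in which no scaling factor enters and the groups did not overlap.

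The other members with the most negative values came from both subunits, and each lay lower in all 4 pairings. Mrpl36, a small zinc-binding protein of the large subunit, measured 29.9 and 35.2 FPKM in the controls and 20.03 and 26.9 FPKM in the knockout-labelled libraries (log2 fold change -0.47). Mrpl52, specific to mitochondria and the second most abundant member, measured 70.8 and 72.4 FPKM against 46.3 and 58.3 FPKM (-0.46). The replicates of the knockout-labelled libraries differed by much more than the controls did in Mrpl52. Mrps27, a small subunit protein with the pentatricopeptide repeats typical of RNA-binding proteins, measured 8.83 and 9.04 FPKM against 6.04 and 6.97 FPKM (-0.41). Mrpl20, the counterpart of a bacterial protein of early large subunit assembly, measured 23.2 and 27.2 FPKM against 18.04 and 19.7 FPKM (-0.40). Mrpl19 measured 4.37 and 4.32 FPKM against 2.72 and 3.36 FPKM (-0.41), and Mrpl41 measured 5.34 and 6.00 FPKM against 3.50 and 4.64 FPKM (-0.40). Mrpl19 overlaps Gcfc2 and Mrpl41 overlaps Dph7 on the opposite strand. Any use of strand in counting is not given, so those values may hold reads of the neighbour. An opposite-strand overlap was found for 14 members in all, among them also Mrpl12, Mrpl14, Mrpl27 and Mrps25, and the same limit holds there. The 63 members without such an overlap had a median of -0.26. After median-ratio scaling the groups overlapped in Mrpl36, Mrpl20 and Mrpl41, and stayed apart in Mrpl52, Mrps27 and Mrpl19. Limma adjusted p-values of these 6 members ran from 0.125 to 0.186.

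**Figure D3:**
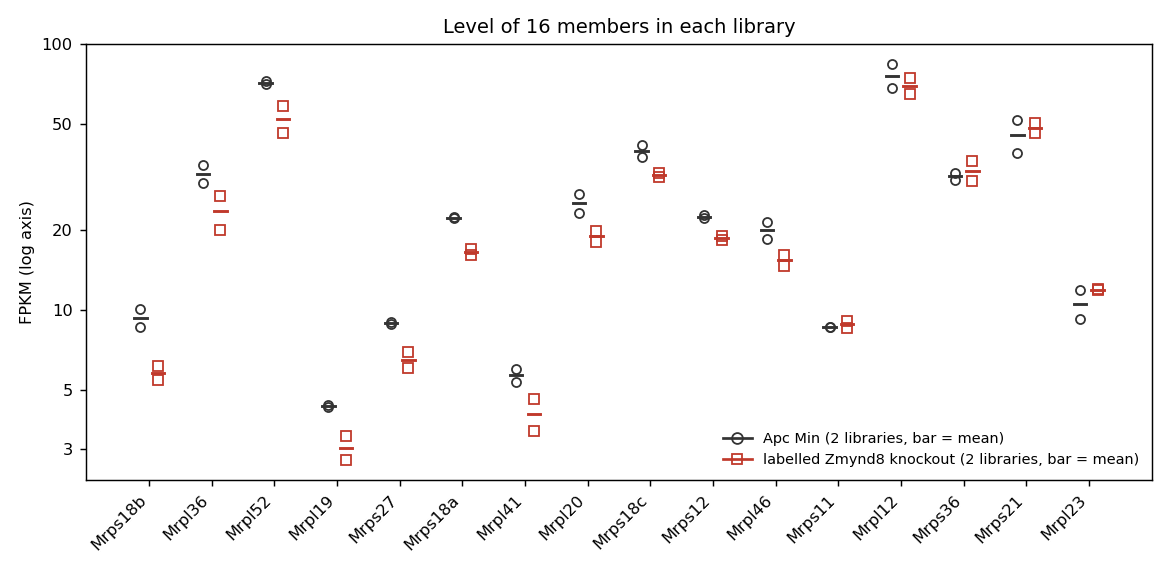
FPKM (log axis) of 16 members in each of the 4 libraries, with controls as circles, knockout-labelled libraries as squares and a bar at each group mean. From Mrps18b to Mrpl46 both squares lie below both circles, and from Mrps11 to Mrpl23 the groups overlap.

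Some members at the core of the ribosome's function are given next, by role. Mrpl3, Mrpl10 and Mrpl32 were added after their values were seen, so these members do not stand for all with such roles. Mrps12, the small subunit protein that guards decoding accuracy, measured 22.2 and 22.7 FPKM in the controls and 18.4 and 18.9 FPKM in the knockout-labelled libraries (log2 fold change -0.25, SE 0.09, limma adjusted p = 0.162). Mrpl3, near the site of peptide bond formation, measured 19.0 and 20.2 FPKM against 14.96 and 15.7 FPKM (-0.33). Mrpl12 forms the stalk that recruits translation factors, and Mrpl10 anchors it. The stalk protein Mrpl12 had the highest level of all members, 68.4 and 83.8 FPKM in the controls and 64.8 and 74.2 FPKM in the knockout-labelled libraries. Its groups overlapped, and its value of -0.12 turned to 0.05 under median-ratio scaling. The anchor Mrpl10 measured 24.5 and 23.4 FPKM against 19.4 and 19.97 FPKM (-0.27), with no overlap. Mrpl12 was 3.71 and 4.81 times the median member in the controls against 4.43 and 5.05 times in the knockout-labelled libraries. Mrpl32, whose processing by a mitochondrial protease precedes its assembly into the ribosome, measured 24.2 and 23.1 FPKM against 18.8 and 20.3 FPKM (-0.26). After median-ratio scaling the groups overlapped in Mrps12 and Mrpl32, each at -0.09. They stayed apart in Mrpl3 (-0.17) and Mrpl10 (-0.10).

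The promoter of Mrpl12 is shown as that of the most abundant member. It lies at chr11:120484487-120484636 on the plus strand, in the same build, and held none of the searched motifs, which says only that these letters are not in this stretch.
Mrpl12: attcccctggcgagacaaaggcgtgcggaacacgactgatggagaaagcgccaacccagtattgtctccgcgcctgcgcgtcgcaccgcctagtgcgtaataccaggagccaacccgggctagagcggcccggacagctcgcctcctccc

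The 8 members with the most positive values had small differences. Mrpl23, at the exit tunnel of the large subunit, had the largest, with 11.9 and 9.21 FPKM in the controls and 11.95 and 11.86 FPKM in the knockout-labelled libraries (log2 fold change 0.17, SE 0.14, limma adjusted p = 0.459). It shares sequence with the pseudogene Mrpl23-ps1, so reads could be split between them. Mrps21 measured 51.8 and 38.8 FPKM against 50.5 and 46.3 FPKM (0.11), and the controls alone spanned a wider range than both knockout-labelled libraries. Mrps36 measured 30.8 and 32.7 FPKM against 30.5 and 36.2 FPKM (0.06). Mrpl45, which tethers the ribosome to the inner membrane, measured 10.2 and 9.95 FPKM against 10.3 and 10.4 FPKM (0.04). As scaled by the authors, it was the sole member higher in all 4 pairings, by a difference smaller than its SE of 0.09. Mrpl27, Mrpl14, Mrps11 and Mrpl30 had values between 0.02 and 0.04, with overlapping groups. After median-ratio scaling, all of these 8 members but Mrps36 lay higher in all 4 pairings. This then held for 13 of all 77 members and for 28.2% of all genes.

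Mrpl46 and Mrps11 are head-to-head neighbours on chromosome 7. As scaled by the authors, the groups stood apart in Mrpl46 alone. The starts of the genes are 42 bases apart, so they share the bases between them. This stretch is shown because both members are read outward from it: chr7:78783090-78783130 in build GRCm38.p6, on the plus strand, on which Mrps11 is read. The capitals mark a GC box.
Between Mrpl46 and Mrps11: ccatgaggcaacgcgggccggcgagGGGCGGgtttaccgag

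Mrpl46, of the large subunit, measured 18.5 and 21.5 FPKM in the controls and 14.6 and 16.1 FPKM in the knockout-labelled libraries (log2 fold change -0.35, SE 0.12, limma adjusted p = 0.153). Mrps11, of the small subunit, measured 8.65 and 8.65 FPKM against 9.08 and 8.55 FPKM (0.02, SE 0.10, limma adjusted p = 0.883). As scaled by the authors, the groups overlapped in Mrps11. After median-ratio scaling they overlapped in Mrpl46 instead, and Mrps11 lay higher in both knockout-labelled libraries than in either control (0.18). The ratio of Mrpl46 to Mrps11 within a library was 2.13 and 2.48 in the controls against 1.61 and 1.88 in the knockout-labelled libraries, without overlap. This pair was singled out after its values were seen.

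Other members also have a head-to-head neighbour. Of the 68 members with a RefSeq promoter entry, 24 had another coding gene starting within 1000 bases in the opposite direction (35.3%), against 1220 of 9464 coding genes of the table with an entry (12.9%). The median distance between starts was 136 bases. Mrpl46 and Mrps11 are each other's neighbour, which leaves 22 neighbours that are not members. Of these, 19 were tested and 14 had a negative log2 fold change (73.7%, against 71.7% of all genes). Limma called 0 of them (0.726% of all genes), and their median was -0.23. Among these were Sars2, the mitochondrial seryl-tRNA synthetase, 147 bases from Mrps12, at -0.31, and Ptcd2, 108 bases from Mrps27, at -0.36. In contrast, Ppp1r10, 756 bases from Mrps18b, measured 12.3 and 10.1 FPKM in the controls and 12.4 and 13.2 FPKM in the knockout-labelled libraries (0.18). The most positive of the 19 was Pnpla7, 935 bases from Mrpl41, at 0.80. Its level was 2.08 and 2.43 FPKM in the controls and 4.53 and 4.80 FPKM in the knockout-labelled libraries. Members with such a neighbour had a median of -0.27, and those without had -0.23.

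The promoters of the members were searched on both strands for 8 motifs in the 300 bases from 250 before to 50 after the RefSeq start. The ETS family motif CCGGAAG, bound among others by GABP, a regulator of mitochondrial genes, occurred in 25 of 68 member promoters (36.8%), against 20.2% of the 9464 coding genes and 8.86% of all 32851 windows of that length. The YY1 motif AAGATGGCG occurred in 8 members (11.8%, against 3.61% of coding genes and 1.4% of all windows). The NRF1 motif GCGCATGC, named for nuclear respiratory factor 1, also occurred in 8 members (11.8%, against 5.93% and 2.71%). The GC box GGGCGG of the Sp factors was found in 50%, against 68% of coding genes and 35.7% of all windows, and the E-box CACGTG of Myc was found in 7.35%, against 11.7% and 7.15%. The CCAAT box CCAAT (39.7%, against 42.7% and 37.4%), the TATA box TATAAA (7.35%, against 9.2% and 13.6%) and the CRE TGACGTCA (2.94%, against 3.51% and 1.79%) completed the set. No motif contains another, and a match is a description of the letters. Members with the ETS motif had a median log2 fold change of -0.25, as did those without it. The 5 members with the E-box (Mrpl2, Mrpl20, Mrpl36, Mrpl37 and Mrps18c) had a median of -0.35, and the 63 without it -0.25.

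Mean levels of the members over the 4 libraries ran from 2.89 FPKM for Mrps25 to 72.8 FPKM for Mrpl12, a range of 25.2-fold, with 53 of 77 between 10 and 40 FPKM. After Mrpl12 the most abundant were Mrpl52, Mrps21, Mrpl42, Mrpl34 and Mrpl33, and the least abundant were Mrpl19, Mrpl17, Mrps10 and Mrps25. Across the 77 genes, which are not independent replicates, Spearman's rho between mean FPKM and the exonic length recovered from the values was -0.75 (Pearson's r of the logs -0.81). Reads, which are not divided by length, were nearly flat with length (rho 0.17). The 22 members under 1000 bases had a median of 26.7 FPKM and 888 reads per library, and the 20 over 2000 bases had 7.59 FPKM and 984 reads. Both sets had similar log2 fold changes, with medians of -0.26 and -0.23. Length enters FPKM as a divisor, so the points share that quantity.

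**Figure D4:**
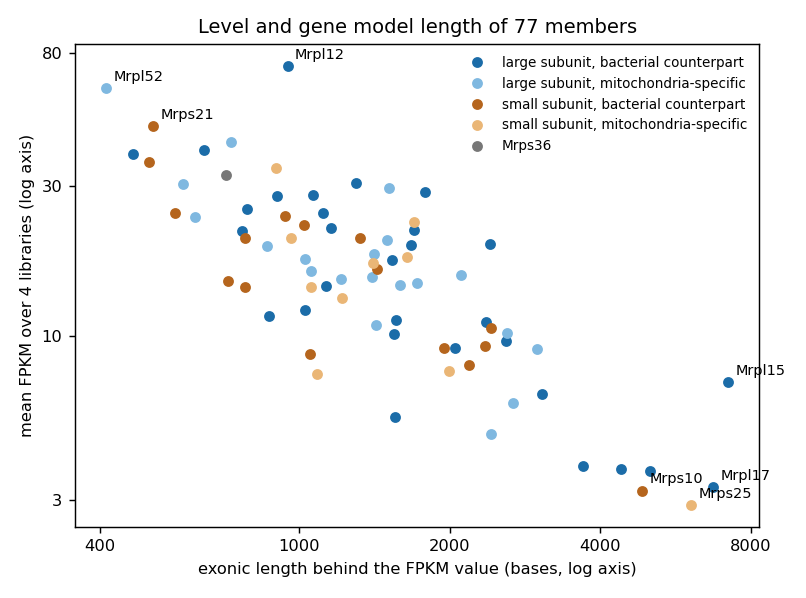
Mean FPKM over the 4 libraries (log axis) against the exonic length behind the value in bases (log axis) for the 77 members, coloured by subunit and by whether a bacterial counterpart exists. Points descend from Mrpl52, with 412 bases, to Mrpl17 and Mrpl15, with 6712 and 7204 bases, and Mrpl12 lies above the others of its length.

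Genes that work with the members were read from lists of the same pathway. Mitoribosome proteins with other names had a median log2 fold change of -0.26 over 7 genes, 6 of them negative and 0 called by limma, where the background was 0.726%. Ptcd3, a pentatricopeptide protein of the small subunit, measured 10.3 and 10.1 FPKM in the controls and 6.46 and 7.21 FPKM in the knockout-labelled libraries (-0.52, SE 0.11, limma adjusted p = 0.0935). Ict1, the release factor homologue now named Mrpl58, measured 23.0 and 19.97 FPKM against 18.6 and 19.4 FPKM (-0.17), and Aurkaip1 had 0.04. Assembly factors had a median of -0.21 over 25 genes, with 0 called and 17 negative, a share below the 71.7% of all genes, and 14 were negative after median-ratio scaling. Wbscr16, also known as RCC1L, measured 5.88 and 6.05 FPKM against 3.12 and 3.79 FPKM (-0.65, SE 0.13, limma adjusted p = 0.0931), and the pseudouridine synthase Rpusd4 measured 6.93 and 7.05 FPKM against 4.73 and 4.87 FPKM (-0.46). Translation factors and mRNA-binding partners had a median of -0.19 over 18 genes, all 18 negative and 0 called, and 13 were negative after median-ratio scaling. Among them were the recycling factor Mrrf (-0.49) and Lrpprc, which stabilizes mitochondrial mRNAs (-0.36). The 26 protein import genes had a median of -0.24, 23 negative and 0 called, and the 20 genes of mitochondrial DNA upkeep and transcription had a median of -0.21, 18 negative and 0 called. After median-ratio scaling 17 and 12 of these were negative, where 50.9% of all genes were. None of the 13 mRNAs encoded in mitochondrial DNA was found among the deposited genes under the names searched, so they were not analysed here.

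Iars2, the mitochondrial isoleucyl-tRNA synthetase, was the exception among the 19 tRNA synthetases, of which 1 was called higher and 0 lower. It rose from 18.7 and 19.1 FPKM to 36.3 and 39.6 FPKM (log2 fold change 0.97, SE 0.10, limma adjusted p = 0.0417), where 0.595% of all genes were called higher. The call was lost after median-ratio scaling, at an adjusted p of 0.0513, and without control replicate 1 (0.0600) or replicate 1 or 2 of the knockout-labelled libraries (0.177 and 0.347), and under 4 further settings (adjusted p from 0.0528 to 0.152), while the log2 fold change stayed between 0.90 and 1.14. Because Rab3gap2 and Mir194-1 overlap Iars2 on the opposite strand, the value may hold their reads. The other synthetases had 17 negative values, and the median over all 19 was -0.22.

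Among regulators of mitochondrial gene expression, 10 of 12 had negative values (71.7% of all genes) and limma called 0 (0.726%). Their median, -0.16, was near that of all genes, and after median-ratio scaling 6 were negative and 6 positive. Pprc1, a coactivator of the PGC-1 family, measured 5.90 and 4.95 FPKM in the controls and 3.23 and 3.22 FPKM in the knockout-labelled libraries (-0.60, SE 0.13, limma adjusted p = 0.0980). Its relative Ppargc1a, PGC-1α, measured 4.41 and 3.38 FPKM against 5.70 and 6.47 FPKM (0.54, SE 0.15, limma adjusted p = 0.130), and their partner Esrra had 0.31. The groups did not overlap in either coactivator, and the directions were opposite. Myc had -0.30, Nrf1 -0.11, Tfam -0.02 and Gabpa -0.00, and none passed the threshold.

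The members were also set beside the cytosolic ribosomal protein genes and the nuclear genes of the respiratory chain and ATP synthase. Median log2 fold changes were -0.25 for the 77 members, -0.23 for 78 cytosolic ribosomal protein genes and 0.09 for 79 respiratory genes. Negative values were found in 67, 78 and 20 genes, and limma called 0 in each list. Lower in all 4 pairings were 56, 58 and 7 genes (48.5% of all genes), and higher were 1, 0 and 29 (14.9%). After median-ratio scaling 22, 26 and 1 were lower (28%) and 13, 5 and 62 higher (28.2%). The medians then were -0.09, -0.05 and 0.27. This scaling divides all values of a library by the same factor. It therefore moves the lists by nearly the same amount and could not change which lie above the others. Within a library, the members' sum was 14.9% and 14.2% of the respiratory sum in the controls against 11.9% and 11.5% in the knockout-labelled libraries. Against the cytosolic ribosomal protein genes it was 6.01% and 7.00% in the controls against 6.27% and 6.80% in the knockout-labelled libraries. The first ratio did not overlap between the groups and the latter did. No test was made of these ratios.

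**Figure D5:**
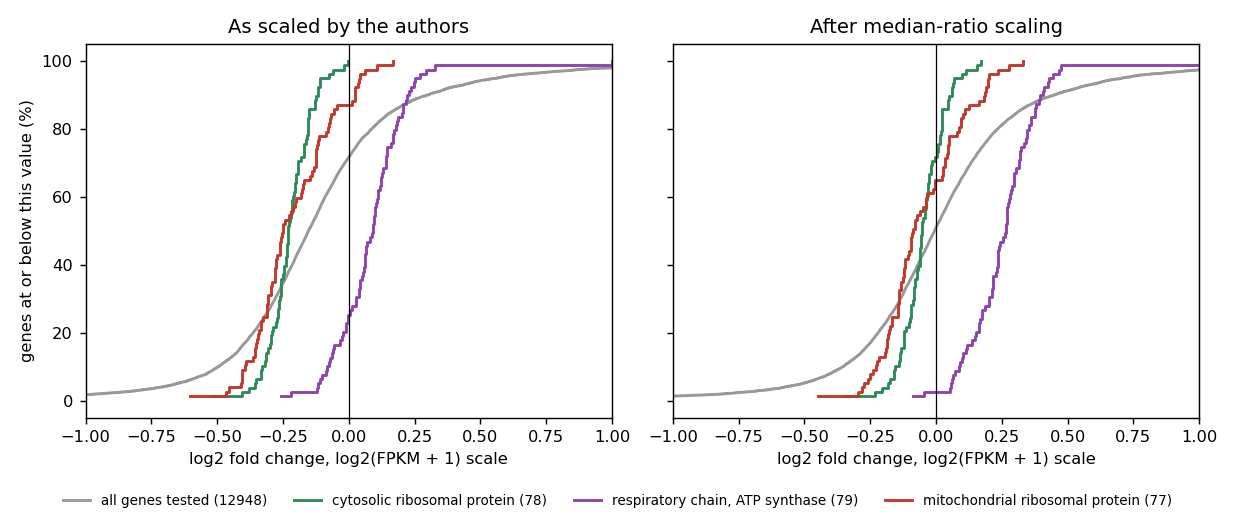
Percentage of genes at or below each log2 fold change (log2(FPKM + 1) scale) for all 12948 genes tested, 78 cytosolic ribosomal protein genes, 79 respiratory chain and ATP synthase genes and the 77 members, as scaled by the authors (left) and after median-ratio scaling (right). The members and the cytosolic set lie left of the respiratory set in both panels. Medians of the members, the cytosolic and the respiratory set are -0.25, -0.23 and 0.09 on the left and -0.09, -0.05 and 0.27 on the right. Median-ratio scaling moves the sets by nearly the same amount, so the right panel could not change their places.

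Markers of several crypt cell types differed between the groups as well. For comparison, 48.5% of all genes were lower and 14.9% higher in all 4 pairings, and limma called 0.131% lower and 0.595% higher. All 20 enterocyte markers were higher in all 4 pairings, with a median log2 fold change of 1.02 and 3 called higher (Slc2a2, Mme and Treh), and their summed level ran from 15589 to 17487 FPKM in the controls and from 25867 to 30575 FPKM in the knockout-labelled libraries. All 18 proliferation markers were lower in all 4 pairings, with a median of -0.52, 0 called by limma and 16 lower at an unadjusted p under 0.05 (19.1% of all genes), and sums of 341 to 382 FPKM against 250 to 251 FPKM. Of the 9 Paneth markers 2 were called lower (Mmp7 and Itln1), with a median of -1.17 and sums of 9231 to 11023 FPKM against 4811 to 7052 FPKM. Of 14 crypt epithelium markers 12 were lower in all 4 pairings (median -0.52, sums of 7142 to 7643 FPKM against 5827 to 6177 FPKM). Tuft markers had a median of -0.97 over 6 genes, 1 called lower (Sh2d6), and goblet markers -0.41 over 9. Enteroendocrine markers had a median of -0.03 over 11 genes, with 6 negative, 5 positive and 7 overlapping between groups. Leukocyte markers had a median of -0.13, with sums of 528 to 537 FPKM in the controls and 420 to 585 FPKM in the knockout-labelled libraries, and stroma and endothelium markers had -0.23, with 267 to 289 FPKM against 223 to 234 FPKM. No listed marker was at 0. The part of these cell types in the members' values was not tested.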

How the data were processed

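Per the file headers, the deposited table gives an expression value for each gene in each library, group means, and the authors' log2 fold change with its p-value and q-value. The headers name no unit. The deposited values were read as FPKM, since dividing whole reads by a gene length and a library total gives every value. Reads recovered within 0.002 of a whole number were found for 13359 of 13359 genes, and on simulated data 94.7% of 600 genes were recovered exactly. HISAT2 and the build mm10 are named in the submitters' processing notes, while the sources used here give neither the counting tool nor the annotation nor whether strand was used. In the authors' deposited table all 77 members have a q-value of 1, and the lowest p-value is 0.103, for Mrpl52. That table's test is not given either. Of 13527 entries, 168 were exact repeats and were used once. The 4 other samples of the series (ChIP-seq and input of HCT116 cells) were not analysed here, and 0 per-sample columns were unused.

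Genotype was tested in R 4.3.3 with limma 3.58.1 (trend and robust options), on log2(FPKM + 1). Adjustment was by Benjamini-Hochberg over 12948 genes with a threshold of 0.05, and the count test planned for raw counts was not used because the table is not one. Alternatives were other scalings, filters, a pseudocount of 0.1, voom on recovered reads, a replicate block and leaving out each library. The log2(FPKM + 1) scale understates the change of low genes, and intervals are at 95%. Named members follow a rule: the 8 most positive and 8 most negative, the 6 highest and 4 lowest by level, the Mrps18 paralogs, Mrpl12, Mrps12, Mrps36 and Ict1. Of each pathway list up to 4 genes of smallest p could be named, and any regulator. Mrpl2, Mrpl3, Mrpl10, Mrpl15, Mrpl32, Mrpl37, Mrpl46 and Aurkaip1, and the called markers, were added after their values were seen. So were the neighbours Sars2, Ptcd2, Ppp1r10 and Pnpla7. The members and lists were chosen with earlier results of these data known, and the cytosolic and respiratory lists were defined after the file was seen. Promoters are from RefSeq (GRCm38.p6), matched by gene identifier for 68 of 77 members and 9464 of 11794 coding genes (80.2%). Leaving out a library leaves its group with 1, which is then assumed to vary like the other group.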

Additional observations from a re-analysis of the deposited data

How the results depend on the processing

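No member was called under any of the 12 alternatives by limma, or by voom where reads were used, although a mean of at least 5 FPKM left 70 members to test. Members lower at an unadjusted p under 0.05 numbered 28 without a change of setting and 2 (median-ratio scaling) to 28 (pseudocount 0.1 or no filter) under the alternatives. The count over all genes, 94, became 1 without a filter on low values, 2 with a mean of at least 5 FPKM and 11 without the trend and robust options, and ranged from 0 to 616 when 1 library was left out (0 without either knockout-labelled library, 616 without control replicate 2). The median log2 fold change of the members, -0.25, was -0.0865 under median-ratio scaling and -0.126 under quantile normalization. It ran from -0.248 to -0.215 with 1 library left out. The number lower in all pairings, 56, was 22 and 35 under the same 2 scalings. With 1 library left out it was 60 to 64, but only 2 pairings then remain, so this number could not go down. Of 25 named members, 9 changed sign somewhere. Under median-ratio scaling these were Mrpl12 at 0.0494, Mrpl33 at 0.1269 and Mrpl34 at 0.1024, and under quantile normalization Mrpl33 at 0.0141. With 1 library left out, values ranged from -0.2688 to 0.0203 for Mrpl12, -0.0628 to 0.1401 for Mrpl14, -0.0086 to 0.0934 for Mrpl27, -0.096 to 0.1447 for Mrpl30, -0.1633 to 0.0741 for Mrpl33, -0.3208 to 0.1821 for Mrpl34, -0.0142 to 0.0637 for Mrps11, -0.0963 to 0.3089 for Mrps21 and -0.0589 to 0.1845 for Mrps36. The cause was not tested.

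The libraries share replicate numbers across groups, but nothing in the labels pairs them, and deviations from the group means correlated at 0.045. With a replicate block, limma called 0 of all genes (2245 lower and 907 higher at an unadjusted p under 0.05, and 85 called by voom without a block) and 0 members. The members had 284 to 3878 reads each, and gaps within a group exceeded counting error at 95% in 40 (controls) and 31 members, so more than counting error stood between the libraries.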
